A study of Mus musculus with 18 samples.

Results

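The FGF receptor family in mouse consists of the receptor tyrosine kinases Fgfr1, Fgfr2, Fgfr3 and Fgfr4 and of Fgfrl1, a related membrane protein without the intracellular kinase domain. All 5 genes were found by symbol among the 38243 genes counted, and their levels are described here across the tissues and genotypes of the series. RNA was sequenced from 6 female C57BL/6 embryos at embryonic day 16.5 (E16.5), 3 heterozygous Fgfr2+/S252W embryos (genotype Fgfr2S252W in the labels, disease state Apert syndrome) and 3 Fgfr2+/+ littermates (WT, controls). From each embryo, mandibular bone, Meckel's cartilage (MC) and mandibular condylar cartilage were cut out of frozen sections by laser capture, and 1 library was made per tissue, which gave 18 libraries in 6 groups of 3. The mutant embryos were heterozygous and carried the substitution in the Fgfr2 gene itself, so that their Fgfr2 message can come from a normal and a mutant allele, and all groups shared strain, sex and age. How the mutant line was made is not given in the sources used here. In each library the value of a gene was the number of sequenced fragments that fell in its exons. It is given below as FPKM, fragments scaled to exon length and to sequencing depth (with TMM factors), so that libraries can be compared. Comparisons between genes are approximate, because the length sums all counted exons of a gene. Differences in amplification between genes were not checked.

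FGFs bind the extracellular immunoglobulin-like domains of these receptors together with heparan sulfate, and the paired receptors then phosphorylate each other and pass the signal to the MAP kinase, PI3 kinase and phospholipase C pathways. In the growing skeleton, Fgfr1 and Fgfr2 are known from osteoblast precursors and osteoblasts, and Fgfr3 from proliferating chondrocytes, where it restrains growth. Fgfrl1 binds FGFs and heparin and is known from cartilage. The S252W substitution, one of the changes behind Apert syndrome, lies in the linker between the second and the third immunoglobulin-like domains and is known to alter ligand binding.

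The Fgfr2 codon changed in the mutant embryos (TCA in the reference) occupies chr7:130201166-130201168 on the minus strand of GRCm38, in an exon that the counts include. The reference coding stretches of 30 bases around this codon and its aligned codons in Fgfr1 and Fgfr4 are given here, because they show how closely the mutated place is shared. They were taken from GENCODE M21 transcripts of the same build. Capitals mark the mutated codon of Fgfr2, or the codon aligned to it, and the next one.
Fgfr2: gtcgttgaacggTCACCAcaccggcccatc
Fgfr1: gtcgtggaacgaTCTCCGcaccgacccatc
Fgfr4: gtgctggagcggTCCCCGcaccggcccatc
The Fgfr2 stretch spans chr7:130201151-130219004 (minus strand), and those of the other genes span chr8:25560837-25562160 in Fgfr1 and chr13:55159211-55159945 in Fgfr4 (plus strand), each with an intron inside. Over the 22 codons around this place, the encoded residues were identical to those of Fgfr2 at 21 in Fgfr1, 18 in Fgfr4 and 8 in Fgfrl1, whose stretch is therefore not shown.

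The exon with the mutated codon is followed in the annotated Fgfr2 transcripts by 1 of 2 alternative exons, which give the IIIb and the IIIc forms of the receptor. The opening 30 bases of the IIIb exon are printed because the forms differ in ligand binding and in the tissues that make them.
Fgfr2 IIIb exon: cactcggggataaatagctccaatgcagaa
The IIIb exon (148 bases, chr7:130199758-130199905, minus strand) and its alternative were both in the list of counted exons. A count of Fgfr2 therefore adds the fragments of both forms, and those of the normal and the mutant allele, and none of the values below separates them.

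The genes lay on chr8:25513654-25575714 (Fgfr1, ENSMUSG00000031565, plus strand), chr7:130162451-133123350 (Fgfr2, ENSMUSG00000030849, minus strand), chr5:33721724-33737068 (Fgfr3, ENSMUSG00000054252, plus strand), chr13:55152640-55168759 (Fgfr4, ENSMUSG00000005320, plus strand) and chr5:108694229-108706950 (Fgfrl1, ENSMUSG00000008090, plus strand) of GRCm38. The long span of Fgfr2 comes from a pair of distal 5′ exons in the annotation used, across which 40 other genes lie, and 1 exon of Ctbp2 overlaps an Fgfr2 exon. Fragments shared by these exons were not counted for either gene. Counting ignored the strand, so that reads of an antisense transcript cannot be told apart from reads of the gene.

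Total counts per library lay between 8218548 and 15585778. Mitochondrially encoded genes took 19.4% to 38.1% of them, and the nuclear gene Gm42418 took 24.1% to 39.4% in MC, 5.58% to 9.33% in bone and 10.9% to 20.2% in condylar cartilage. The tissue labels were checked with marker lists by their summed CPM (counts scaled to library size). The 11 osteoblast markers summed to 28676 to 62250 CPM in bone, 2740 to 6045 in MC and 7567 to 27586 in condylar cartilage. The 14 chondrocyte markers summed to 33678 to 41212 CPM in condylar cartilage and to 231 to 592 in bone. In MC they summed to 2572 to 10874 CPM in 5 libraries, with the 10874 in Fgfr2+/S252W MC replicate 1 and the next highest at 4026. In Fgfr2+/+ MC replicate 1 they summed to 466, a value within the range of bone. That library also held the highest summed osteoblast and osteoclast markers of MC (6045 and 257 CPM). Condylar replicate 3 of each genotype stood apart in another way, with 27586 CPM (Fgfr2+/S252W) and 17170 CPM (Fgfr2+/+) of osteoblast markers, against 7567 to 9295 in the other 4 condylar libraries. They also held more hypertrophic chondrocyte markers (3894 and 4941 CPM, against at most 2761) and a larger Gm42418 share (20.2% and 20.1%, against at most 14.3%). In tissue pieces of this kind, fewer cells of a type and less RNA per cell cannot be told apart.

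The question of the tissue comparisons was where each receptor was expressed. Fgfr3 and Fgfrl1 were highest in condylar cartilage, Fgfr2 was lowest there, Fgfr1 did not pass between any of the tissues in the fit of all libraries with TMM factors, and Fgfr4 was near the limit of detection. The plot of levels in each library shows these values.

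**Figure D1:**
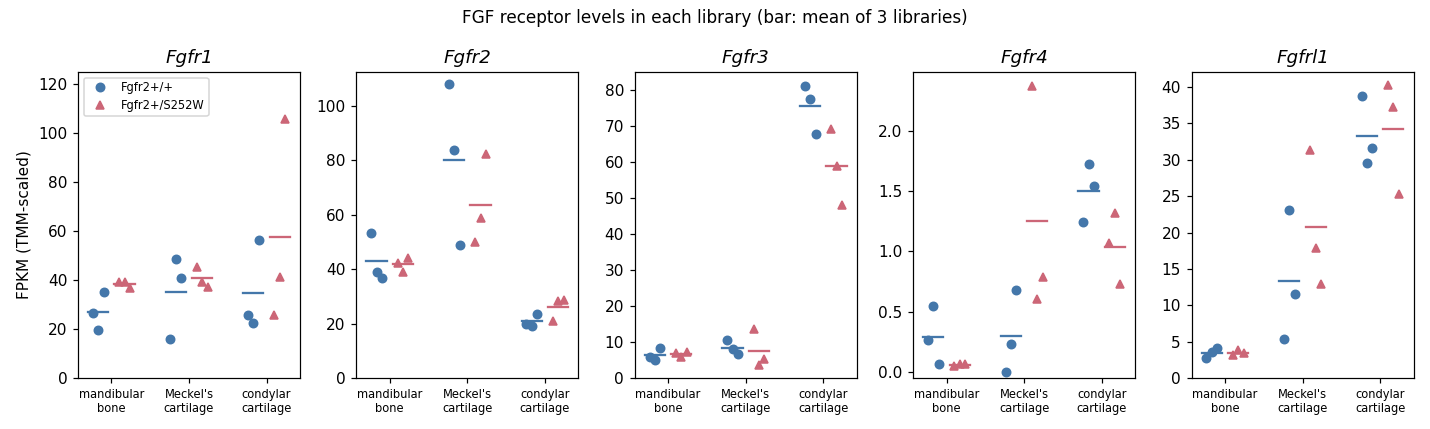
FPKM of each receptor gene in each of the 18 libraries, by tissue and genotype, on linear axes that differ between panels. Points are libraries and horizontal bars are means of 3. The 6 condylar libraries of Fgfr3 lay between 48.2 and 81.3 FPKM, above every library of bone and MC.

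Fgfr3, the receptor that restrains chondrocyte proliferation, measured 67.9, 77.6 and 81.3 FPKM in the Fgfr2+/+ condylar libraries and 48.2, 59.0 and 69.3 FPKM in those of Fgfr2+/S252W embryos. In bone it measured 4.91, 5.91 and 8.32 FPKM in Fgfr2+/+ and 5.90, 6.85 and 7.12 FPKM in Fgfr2+/S252W embryos. In MC it measured 6.63, 8.02 and 10.5 FPKM in Fgfr2+/+ and 3.56, 5.19 and 13.6 FPKM in Fgfr2+/S252W embryos. Every condylar library was therefore above every other library, whereas bone and MC overlapped. On the log2 CPM scale, bone was lower than condylar cartilage, with a log2 difference of -3.37 ± 0.18 (SE; limma, n = 6 libraries per tissue, adjusted p = 8.9e-12), a 10.3-fold difference. Condylar cartilage was higher than MC by 3.13 ± 0.21 (limma adjusted p = 1.7e-10), an 8.74-fold difference, and bone and MC did not pass the test (log2 difference of -0.24 ± 0.23, limma adjusted p = 0.40, 95% interval -0.71 to 0.23). This Fgfr3 difference turned to 0.89 and passed when libraries were scaled by total counts alone (limma adjusted p = 0.014), and turned to 0.085 without Fgfr2+/S252W MC replicate 1 (limma adjusted p = 0.76).

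Fgfrl1, the member without a kinase, was also high in condylar cartilage, with 29.6, 31.6 and 38.7 FPKM in Fgfr2+/+ and 25.3, 37.2 and 40.2 FPKM in Fgfr2+/S252W embryos. Its lowest values were in bone, with 2.75, 3.59 and 4.08 FPKM in Fgfr2+/+ and 3.18, 3.45 and 3.81 FPKM in Fgfr2+/S252W embryos. MC lay between, with 5.39 (replicate 1), 11.6 and 23.1 FPKM in Fgfr2+/+ and 12.9, 17.9 and 31.4 FPKM in Fgfr2+/S252W embryos. All bone libraries were below all libraries of both cartilages, and only the highest MC library, Fgfr2+/S252W replicate 1, reached into the range of condylar cartilage. That library also held the highest chondrocyte markers and the highest Fgfr3 of MC. Bone was lower than condylar cartilage, with a log2 difference of -3.28 ± 0.26 (9.68-fold, limma adjusted p = 2.2e-09) and lower than MC, with a log2 difference of -2.04 ± 0.29 (4.11-fold, limma adjusted p = 9.4e-06). Condylar cartilage was higher than MC by 1.24 ± 0.24 (2.36-fold, limma adjusted p = 0.00019). With Fgfr2+/S252W embryos alone this last difference was 0.78 and did not pass (limma adjusted p = 0.065), and with Fgfr2+/+ embryos alone it was 1.70. The chondrocyte markers moved with the same tissues: 12 of 12 tested were higher in condylar cartilage than in MC and 11 of 12 were lower in bone than in MC. What part the share of chondrocytes in each capture had in the values of Fgfr3 and Fgfrl1 was not tested.

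Fgfr2, the gene mutated in this model, was highest in MC and lowest in condylar cartilage. MC held 48.8, 83.8 and 108.1 FPKM in Fgfr2+/+ and 50.05, 58.8 and 82.5 FPKM in Fgfr2+/S252W embryos, and the 108.1 came from the library of low chondrocyte markers. Bone held 36.9, 39.0 and 53.4 FPKM in Fgfr2+/+ and 38.9, 42.4 and 44.2 FPKM in Fgfr2+/S252W embryos. Condylar cartilage held 19.1, 20.01 and 23.5 FPKM in Fgfr2+/+ and 21.1, 28.4 and 28.8 FPKM in Fgfr2+/S252W embryos, below every library of the other tissues. The condylar level was lower than that of MC, with a log2 difference of -1.58 ± 0.17 (3.00-fold, limma adjusted p = 1.3e-07), and the bone level was higher than the condylar level by 0.87 ± 0.17 (1.82-fold, limma adjusted p = 0.00021). Bone was lower than MC, with a log2 difference of -0.72 ± 0.16 (1.64-fold, limma adjusted p = 0.0011), with the highest bone library above the 2 lowest MC libraries, and the difference was -0.57 without Fgfr2+/+ MC replicate 1. By their median, summed markers of several other cell types were also lowest in condylar cartilage. The perichondrium and tendon list summed to 625 to 880 CPM there, 1612 to 2533 in MC and 1943 to 3191 in bone, and 6 of 6 markers tested were lower in condylar cartilage than in MC, whereas 1 was higher and 3 were lower in bone than in MC. Endothelial and macrophage markers summed to at most 24.6 and 9.24 CPM in condylar cartilage, against at least 20.6 and 24.3 in MC and 192 and 105 in bone. Their part in the Fgfr2 values was not tested.

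The order of Fgfr2 in bone and MC depended on the scaling. When libraries were scaled by total counts alone, bone minus MC was 0.36 with limma adjusted p = 0.20, in a setting where the median of all genes moved to 1.10 for this comparison. Relative to that median the difference was -0.73. With TMM factors computed without Gm42418 and the mitochondrial genes, bone minus MC was -0.68. Scaling by total counts without these genes was not tried. In Fgfr2+/S252W embryos alone the difference was -0.58 and did not pass (limma adjusted p = 0.056).

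Fgfr1, a receptor of many mesenchymal cells, did not pass in any tissue comparison of the fit of all libraries with TMM factors. It measured 19.7, 26.6 and 35.0 FPKM in Fgfr2+/+ bone and 36.8, 39.1 and 39.2 FPKM in Fgfr2+/S252W bone. In MC it measured 40.6 and 48.6 FPKM in Fgfr2+/+ replicates 3 and 2 and 37.4, 39.2 and 45.4 FPKM in Fgfr2+/S252W embryos, against 15.9 FPKM in Fgfr2+/+ replicate 1. In condylar cartilage, 4 libraries lay between 22.5 and 41.4 FPKM, and the libraries numbered 3 held 56.4 FPKM (Fgfr2+/+) and 105.6 FPKM (Fgfr2+/S252W). These were the same libraries that stood high in osteoblast and hypertrophic chondrocyte markers and in Gm42418 share. What part these measures had in their Fgfr1 values was not tested. The log2 differences were -0.14 ± 0.30 for bone minus MC (limma adjusted p = 0.72), -0.28 ± 0.29 for bone minus condylar cartilage (limma adjusted p = 0.44) and 0.14 ± 0.30 for condylar cartilage minus MC (limma adjusted p = 0.71). Their 95% intervals reached from -0.89 to 0.78 over the 3 comparisons. Scaled by total counts alone, bone minus MC turned to 0.91 (limma adjusted p = 0.0025) and condylar cartilage minus MC became 0.91 (limma adjusted p = 0.0030), in the setting that moved the medians of all genes to 1.10 and 0.79. Without both condylar libraries numbered 3, bone minus condylar cartilage turned to 0.17 (limma adjusted p = 0.56) and condylar cartilage minus MC became -0.31 (limma adjusted p = 0.28), and without these and Fgfr2+/+ MC replicate 1 it became -0.58 and passed (limma adjusted p = 0.0025), as did bone minus MC at -0.41 (limma adjusted p = 0.015).

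Fgfr4, known best from liver and muscle precursors, was above 1 FPKM in only 6 libraries and was not kept for the main test. It had 3, 4 and 5 fragments in Fgfr2+/S252W bone and 4, 13 and 25 in Fgfr2+/+ bone. Condylar cartilage had 55, 57 and 69 fragments in Fgfr2+/+ and 19, 51 and 53 in Fgfr2+/S252W embryos. In MC it had 0, 4 and 12 fragments in Fgfr2+/+ and 9, 15 and 59 in Fgfr2+/S252W embryos, where the count of 0 allows up to 3. In FPKM, all condylar libraries (0.733 to 1.72) were above all bone libraries (0.0462 to 0.552), and MC (0 to 2.37) overlapped with both. The log2 ratios of the mean CPM were -2.85 for bone over condylar cartilage, -2.14 for bone over MC and 0.71 for condylar cartilage over MC, with no test. The ratios against MC lean on Fgfr2+/S252W MC replicate 1, at 2.37 FPKM against an MC median of 0.643. In a fit without the FPKM filter, which was applied to Fgfr4 after its values were seen and depends on the offset added to low counts, the log2 difference between bone and condylar cartilage was -3.36 (limma adjusted p = 0.00013), that between condylar cartilage and MC was 1.87 (limma adjusted p = 0.013), and bone minus MC, at -1.49, did not pass (limma adjusted p = 0.087).

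Of 11469 genes tested, 51% passed between bone and MC, where 2 of the 4 receptors tested passed. In bone against condylar cartilage 48.9% passed and 3 of 4 receptors did, and in condylar cartilage against MC 56.2% passed and 3 of 4 receptors did. These counts lie near the background and say nothing particular about the family. Ordered by p-value, Fgfr3 ranked 49 among the 11469 genes in bone against condylar cartilage and 166 in condylar cartilage against MC. Fgfrl1 ranked 309 in bone against condylar cartilage, and Fgfr2 ranked 874 in condylar cartilage against MC. The other receptor ranks lay between 1030 (Fgfrl1, bone against MC) and 10355 (Fgfr1, condylar cartilage against MC).

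**Figure D2:**
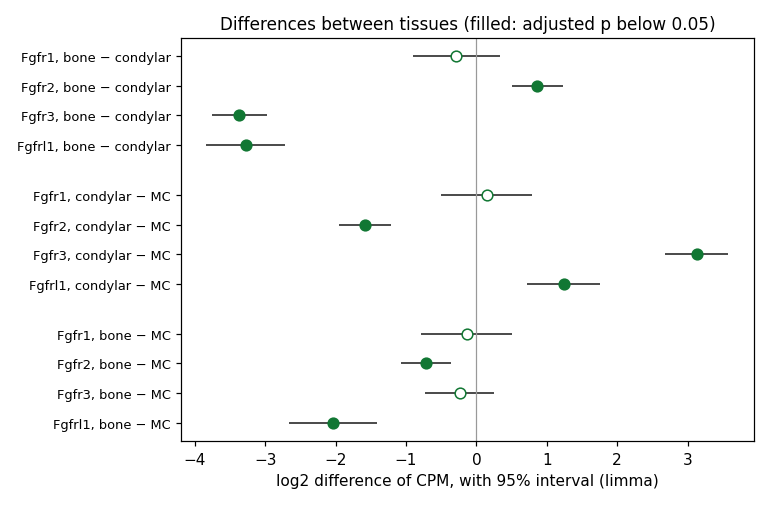
Log2 differences of CPM between tissues for the 4 receptor genes tested (limma, points) with 95% intervals (lines), from 6 libraries per tissue. Filled points passed at an adjusted p below 0.05, and the largest differences were those of Fgfr3 and Fgfrl1 between bone and condylar cartilage, at -3.37 and -3.28.

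Because FPKM is per length, the receptors can also be set beside each other within a tissue, as an approximation. The 5 genes together summed to 67.7 to 91.7 FPKM in bone, 108.4 to 163.7 in MC and 150.5 to 208.7 in condylar cartilage. In bone, Fgfr2 made up a median of 47.3% of this sum (43.8% to 60.1%) and Fgfr1 40.8% (29.1% to 44.6%). In MC, Fgfr2 made up 50.1% (35.0% to 77.3%), Fgfr1 30.7% (11.3% to 37.5%) and Fgfrl1 12.4% (3.85% to 22.0%), where the 77.3%, 11.3% and 3.85% were all those of Fgfr2+/+ MC replicate 1. In condylar cartilage the median share was 40.7% for Fgfr3 (23.1% to 51.5%), followed by Fgfrl1 with 20.9% (12.1% to 25.5%), Fgfr1 with 20.6% (14.97% to 50.6%) and Fgfr2 with 13.2% (11.99% to 16.96%). Fgfr3 had the highest share in 5 of 6 condylar libraries, and in Fgfr2+/S252W condylar replicate 3 it was Fgfr1, with 50.6% against 23.1% for Fgfr3. The FPKM ranges of Fgfr1 and Fgfr2 overlapped in bone, those of Fgfr1 and Fgfrl1 in MC, and those of Fgfr1 with Fgfr3, Fgfrl1 and Fgfr2 in condylar cartilage. Within single libraries, Fgfr1 was above Fgfrl1 in 6 of 6 MC libraries and above Fgfr2 in 6 of 6 condylar libraries, and Fgfr2 was above Fgfr1 in 5 of 6 bone libraries. The order of Fgfrl1 and Fgfr1 in condylar cartilage differed between libraries. In MC the ranges of Fgfr2 and Fgfr1 did not overlap, and in condylar cartilage neither did those of Fgfr3 and Fgfrl1. Fgfr4 stayed at or below 1.66% in every library.

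**Figure D3:**
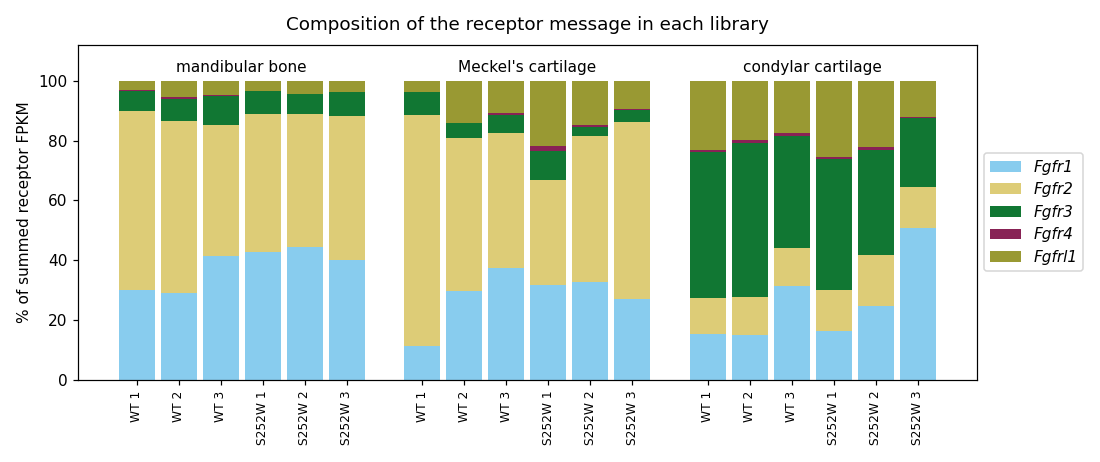
Share of each receptor gene in the summed FPKM of the 5 genes, in percent, for each of the 18 libraries. Fgfr1 and Fgfr2 fill most of each bone and MC bar, and Fgfr3 reaches 23.1% to 51.5% in condylar cartilage.

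A ratio of 2 genes within 1 library does not depend on how the library is scaled. Fgfr3 over Fgfr2 lay between 1.67 and 4.06 in the 6 condylar libraries, between 0.111 and 0.225 in bone and between 0.0605 and 0.272 in MC. Within each of the 6 embryos the log2 ratio was lower in bone than in condylar cartilage, with a mean difference of -4.23 ± 0.75 (SD, exact sign-flip permutation test over 6 embryos, two-sided p = 0.031, adjusted p = 0.047 over 9 ratios) and it was higher in condylar cartilage than in MC by 4.77 ± 0.69 (exact permutation p = 0.031, adjusted p = 0.047). This is the smallest p that 6 embryos allow. Between bone and MC the difference did not pass (0.54 ± 0.79, higher in bone in 5 of 6, exact permutation p = 0.19).

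Fgfr3 over Fgfr1 was above 1 in 5 condylar libraries and at 0.457 in Fgfr2+/S252W condylar replicate 3, the library with the highest Fgfr1. Bone minus condylar cartilage was -3.06 ± 1.07 and condylar cartilage minus MC was 3.06 ± 1.01, each in the same direction in 6 of 6 embryos (exact permutation p = 0.031, adjusted p = 0.047). For Fgfr2 over Fgfr1, bone was higher than condylar cartilage by 1.17 ± 0.63 and condylar cartilage minus MC was -1.71 ± 1.11 (SD), again in all 6 embryos (exact permutation p = 0.031, adjusted p = 0.047). Between bone and MC it differed by -0.54 ± 0.71, with 1 embryo in the other direction (exact permutation p = 0.13), and by -0.30 without the embryo of Fgfr2+/+ MC replicate 1.

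**Figure D4:**
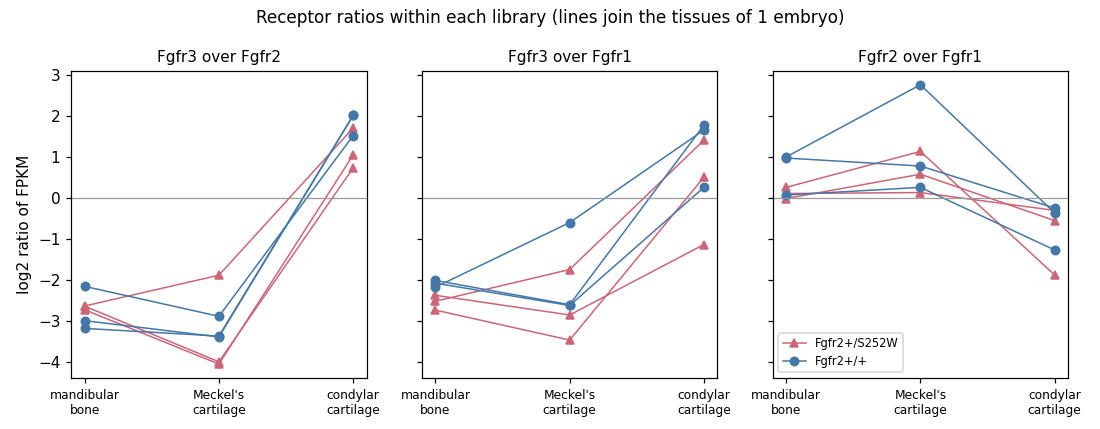
Log2 ratios of FPKM of 2 receptor genes in each library, by tissue, with lines joining the 3 tissues of an embryo. In all 6 embryos Fgfr3 over Fgfr2 was above 0 in condylar cartilage and below 0 in bone and MC.

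The second question was whether the mutant allele was accompanied by a change in the message of any receptor. No receptor passed in any tissue. In bone, 0.0872% of the 11469 genes passed (10 genes), and in MC and condylar cartilage 0% passed by limma, with 1761 and 351 genes at an unadjusted p below 0.05. In bone, edgeR's quasi-likelihood test called 4 genes and DESeq2 called 18, and limma called 0 without Fgfr2+/+ bone replicate 1 and 91 without replicate 3. In MC, limma called 138 genes without Fgfr2+/+ MC replicate 2 and 42 without replicate 3. With all libraries edgeR called 90 genes there and DESeq2 called 423, none of them receptors, and in condylar cartilage edgeR and DESeq2 called 0 and 3.

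Fgfr2 itself was at 41.8 ± 2.68 FPKM (SD, n = 3) in Fgfr2+/S252W bone and 43.1 ± 8.98 in Fgfr2+/+ bone. The log2 difference in bone was -0.02 ± 0.23 (SE here and below; limma adjusted p = 1.00, 95% interval -0.50 to 0.45). In MC it was -0.31 ± 0.24 (limma adjusted p = 0.55, 95% interval -0.80 to 0.18), and in condylar cartilage 0.31 ± 0.25 (limma adjusted p = 1.00, 95% interval -0.21 to 0.82). These intervals leave room for changes of up to about 0.8 on the log2 scale in the cartilages, and a missed threshold does not show equal levels. In MC the Fgfr2 difference was -0.02 without Fgfr2+/+ replicate 1.

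Fgfr1 had a positive difference in each tissue, of 0.53 ± 0.41 in bone (limma adjusted p = 0.83), 0.42 ± 0.45 in MC (limma adjusted p = 0.69) and 0.57 ± 0.42 in condylar cartilage (limma adjusted p = 1.00). In bone all 3 Fgfr2+/S252W libraries lay above all 3 Fgfr2+/+ libraries, and in MC and condylar cartilage the genotypes overlapped. The share of all genes that separated in this way was not counted. An exact permutation test of 3 against 3 gives p = 0.1 for any such separation. The lowest bone values, 26.6 and 19.7 FPKM, were those of Fgfr2+/+ replicates 1 and 2, which stood apart in mitochondrial share (36.0% and 34.8%, against 20.4% to 23.6% in the other 4 bone libraries), in muscle markers (758 and 701 CPM against 56.9 to 135) and in osteoblast markers (35756 and 28676 CPM against 50424 to 62250). Fgfr2+/+ replicate 3, at 35.0 FPKM, lay close to the 36.8 to 39.2 of the mutant libraries, and the bone difference was 0.33 without Fgfr2+/+ replicate 2. In the same bone libraries the summed osteoclast markers were higher in Fgfr2+/S252W embryos (1719 to 2377 CPM against 921 to 1189), although none of the 4 osteoclast markers tested passed. Summed red blood cell markers (315 to 597 CPM against 1257 to 1506) and perichondrium and tendon markers (1943 to 2204 against 2272 to 3191) were lower in Fgfr2+/S252W bone, and skeletal muscle markers (56.9 to 135 against 131 to 758) overlapped. Summed macrophage markers overlapped as well (121 to 147 CPM against 105 to 132), and 1 of 3 macrophage markers tested was lower in Fgfr2+/S252W bone (median log2 difference of -1.47). The part of these measures in the Fgfr1 values was not tested. The condylar value dropped to 0.03 without Fgfr2+/S252W condylar replicate 3 and the MC value turned to -0.11 without Fgfr2+/+ MC replicate 1.

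Fgfr3 differed by 0.07 ± 0.28 in bone (limma adjusted p = 0.99), -0.32 ± 0.35 in MC (limma adjusted p = 0.70) and -0.36 ± 0.23 in condylar cartilage (limma adjusted p = 1.00). Leaving out 1 library moved the MC value between -0.95 (without Fgfr2+/S252W replicate 1) and 0.050 (without Fgfr2+/S252W replicate 2), with -0.090 without Fgfr2+/+ replicate 1, and the bone value between -0.10 (without Fgfr2+/+ replicate 2) and 0.29 (without replicate 3). Its condylar groups overlapped between 67.9 and 69.3 FPKM. Fgfrl1 differed by 0.01 ± 0.44 in bone and 0.04 ± 0.29 in condylar cartilage (limma adjusted p = 1.00 in both). In MC it differed by 0.96 ± 0.39 (limma adjusted p = 0.25), and without Fgfr2+/+ MC replicate 1, the library of low chondrocyte markers, this became 0.30. Summed macrophage markers were higher in Fgfr2+/S252W MC (77.9 to 97.7 CPM against 24.3 to 63.3) and osteoclast markers lower (64.0 to 70.5 against 89.4 to 257). The other marker sums overlapped there. The chondrocyte markers tested had a median log2 difference of 1.18 in MC, and no marker passed. Their part in the MC values was not tested. For Fgfr4 no genotype comparison was made at these counts.

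**Figure D5:**
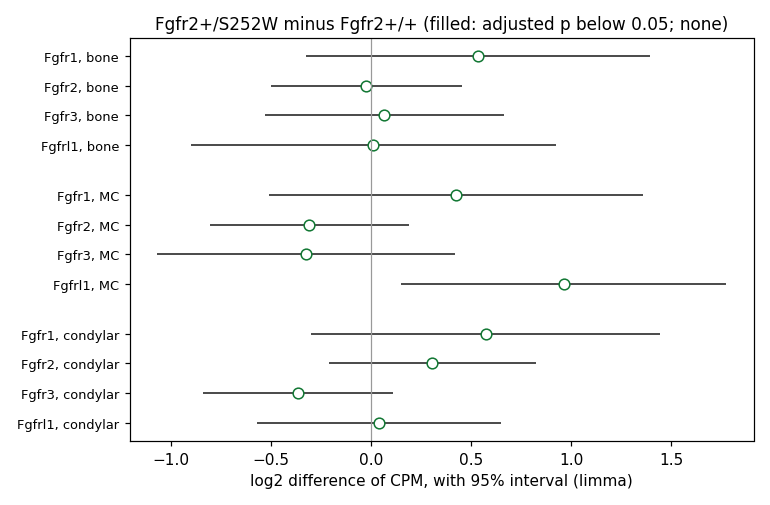
Log2 differences of CPM, Fgfr2+/S252W minus Fgfr2+/+, for the 4 receptor genes tested in each tissue (limma, points) with 95% intervals (lines), from 3 libraries per group. No point passed at an adjusted p below 0.05, and of the 12 intervals only that of Fgfrl1 in MC, 0.15 to 1.77, did not include 0.

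No receptor passed the test of whether its genotype difference differed between tissues. For bone against MC 0.0523% of genes passed this test (6 genes), and for bone against condylar cartilage and condylar cartilage against MC 0% passed, with 344 and 1091 genes at an unadjusted limma p below 0.05 (edgeR 0 in each, DESeq2 5 and 96). The smallest limma adjusted p of a receptor in these tests was 0.56. Of 9 comparisons of receptor ratios between genotypes, none passed, and the exact permutation test of 3 against 3 cannot go below p = 0.1. That value was reached only by Fgfr3 over Fgfr1 in bone, whose log2 ratio was -2.54 ± 0.18 in Fgfr2+/S252W and -2.08 ± 0.08 in Fgfr2+/+ embryos (SD, n = 3, exact permutation p = 0.1, adjusted p = 0.77).

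Beyond the receptors, the genes of the pathway were taken from fixed lists. Of 18 FGF ligand genes only Fgf7 and Fgf10, ligands of the IIIb form of Fgfr2, were kept for testing. Fgf10 averaged 2.04 FPKM in MC, 0.972 in bone and 0.0950 in condylar cartilage, and Fgf7 averaged 3.96 FPKM in bone and 2.69 in MC. Condylar libraries held at most 11 fragments of Fgf10 and 18 of Fgf7, so that fitted differences against them depend on the offset added to low counts. Both were lower in condylar cartilage than in MC, Fgf10 with a log2 difference of -5.38 ± 0.53 (limma adjusted p = 3.8e-08), and bone minus MC was -1.11 ± 0.26 for Fgf10 (limma adjusted p = 0.0015) and 1.24 ± 0.45 for Fgf7 (limma adjusted p = 0.027). Fgf18, a ligand of Fgfr3 made around cartilage, was not kept because it was low outside MC, and is named after its values were seen. It measured 6.89 to 13.1 FPKM in the 6 MC libraries (at most 88 fragments), against at most 0.789 FPKM in bone and 0.456 in condylar cartilage, an order opposite to that of Fgfr3 in the cartilages.

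Of 17 co-receptors and membrane partners 10 were tested. In bone against MC 4 were higher and 2 lower, in bone against condylar cartilage 4 were higher and 3 lower, and in condylar cartilage against MC 5 were higher and 4 lower. Over all genes 51%, 48.9% and 56.2% passed in these comparisons, so that the 6 of 10 between bone and MC lie near the background. Flrt2, a membrane protein that binds FGF receptors, averaged 49.7 FPKM in MC, 19.1 in bone and 3.46 in condylar cartilage, the order of Fgfr2, and was lower in condylar cartilage than in MC, with a log2 difference of -3.77 ± 0.19 (limma adjusted p = 3.4e-12). Gpc3, a heparan sulfate proteoglycan, averaged 111.0 FPKM in condylar cartilage, 79.3 in MC and 38.8 in bone, and was lower in bone than in condylar cartilage, with a log2 difference of -1.53 ± 0.10 (limma adjusted p = 8.2e-11). Sdc4, another proteoglycan of this kind, was higher in condylar cartilage than in MC by 1.90 ± 0.17 (limma adjusted p = 1.2e-08), and Sdc2 was higher in bone than in MC by 0.76 ± 0.14 (limma adjusted p = 0.0002). For Gpc3 the difference between bone and MC of -1.04 ± 0.10 (limma adjusted p = 8.0e-08) became 0.03 under scaling by total counts.

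Among 24 tested adaptors and kinases below the receptor, 5 were higher and 9 lower in bone than in MC, 4 higher and 7 lower in bone than in condylar cartilage, and 9 higher and 8 lower in condylar cartilage than in MC. Set against the 51%, 48.9% and 56.2% of all genes, the 14 of 24 and 11 of 24 in the comparisons of bone lie near the background. The widest difference was that of Grb14, an adaptor that binds activated receptors and dampens their signal. It averaged 29.1 FPKM in condylar cartilage, 3.30 in bone and 0.706 in MC, and was higher in condylar cartilage than in MC by 6.01 ± 0.45 (limma adjusted p = 6.9e-10). Its MC level is low, so that differences against MC depend in part on the offset added to low counts. Pik3r1, the regulatory subunit of PI3 kinase, was lower there than in MC, with a log2 difference of -2.26 ± 0.17 (limma adjusted p = 1.2e-09), and Plcg1, the phospholipase bound by FGF receptors, was lower in bone than in MC, with a log2 difference of -0.66 ± 0.14 (limma adjusted p = 0.00065), which turned to 0.40 under scaling by total counts.

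Of 11 feedback inhibitors and target genes tested, 7 were higher in bone than in condylar cartilage and none was lower, with a median log2 difference of 1.12 against 0.00 over all genes. Against MC, 7 were higher and 2 lower in bone (median 0.78 against 0.02). Of all genes, 48.9% and 51% passed in these comparisons in either direction. Markers of other cell types were also higher in bone than in condylar cartilage, with 4 of 4 endothelial, 4 of 4 osteoclast and 3 of 3 macrophage markers tested (median log2 differences of 4.41, 7.95 and 4.05). In bone against MC, 4 of 4 endothelial, 4 of 4 osteoclast and 9 of 9 osteoblast markers were higher (medians of 2.11, 4.35 and 3.55), and 2 of 3 macrophage markers were higher and 1 lower. Their part in these values was not tested. Etv1, an ETS factor induced by FGF signaling, averaged 3.34 FPKM in bone and 0.375 in condylar cartilage, a difference of 3.73 ± 0.37 (limma adjusted p = 4.8e-08). The condylar level is low, so that this difference depends in part on the offset added to low counts. Spred1, an inhibitor of the RAS pathway, was higher in bone than in MC by 0.78 ± 0.13 (limma adjusted p = 5.3e-05), whereas Ccnd1, which drives entry into the cell cycle, was lower, with a log2 difference of -1.15 ± 0.19 (limma adjusted p = 5.7e-05). Between condylar cartilage and MC, 1 of the 11 was higher, Spred1, and 5 were lower, which is near the 56.2% of all genes that passed there, with Spred2 at a log2 difference of -1.53 ± 0.17 (limma adjusted p = 2.1e-07).

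Regulators of the choice between the IIIb and IIIc exons were the last list, with 2 of 4 tested. Esrp1 and Esrp2, the epithelial factors that favour IIIb, were below the filter, with Esrp1 at most at 0.00934 FPKM in bone, at 0 in all MC libraries and at most at 0.654 FPKM in condylar cartilage. Rbfox2 averaged 35.1 FPKM in MC, 14.8 in bone and 10.3 in condylar cartilage, and was lower in condylar cartilage than in MC, with a log2 difference of -1.77 ± 0.11 (limma adjusted p = 3.3e-11). Ptbp1 was higher in condylar cartilage than in MC by 0.52 ± 0.10 (limma adjusted p = 0.0001). The epithelial marker list, which contains Esrp1 and Esrp2, summed to 0.750 to 6.27 CPM over all libraries.

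No pathway list had a member past the threshold between genotypes in any tissue by limma. The smallest unadjusted limma p of each list in bone belonged to Etv1 (0.74 ± 0.26, limma adjusted p = 0.42), Gpc3 (0.36 ± 0.14, limma adjusted p = 0.50), Sos1 (0.35 ± 0.15, limma adjusted p = 0.54), Fgf10 (-0.22 ± 0.35, limma adjusted p = 0.95) and Ptbp1 (-0.03 ± 0.13, limma adjusted p = 0.99). In MC they were Ptbp1 (0.57 ± 0.14, limma adjusted p = 0.096), Spry4 (2.64 ± 0.69, limma adjusted p = 0.11), Grb14 (-2.70 ± 0.87, limma adjusted p = 0.17), Flrt2 (0.54 ± 0.22, limma adjusted p = 0.25) and Fgf7 (1.85 ± 0.79, limma adjusted p = 0.28). Spry4, a feedback inhibitor of the pathway, measured 0.223, 0.292 and 2.78 FPKM in Fgfr2+/+ and 1.95, 3.66 and 5.06 FPKM in Fgfr2+/S252W MC, so that its groups overlapped. Grb14 averaged 0.312 FPKM in Fgfr2+/S252W and 1.10 in Fgfr2+/+ MC, so that its difference depends in part on the offset added to low counts. In condylar cartilage Etv5 had a difference of 1.21 ± 0.43, Fgf10, at no more than 11 fragments per library, of 2.51 ± 0.98, Sdc2 of 0.57 ± 0.23 and Ptbp1 of 0.18 ± 0.13, each with a limma adjusted p of 1.00.

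The genes whose log2 CPM followed each receptor most closely over the 18 libraries were chosen by Pearson's r, as a description only, since all genes share the same 3 tissues and a tissue difference alone gives a high r. For Fgfr3 they included Slc26a2, the sulfate transporter of cartilage (r = 0.98), Ppfibp1 (r = 0.98), Msi2 (r = 0.97) and Mfge8 (r = 0.97). For Fgfrl1 they were Clec3a (r = 0.98), Scube3 (r = 0.98), Col9a3, a chain of cartilage collagen IX (r = 0.97), Smtn (r = 0.97) and Snorc, a proteoglycan of chondrocytes (r = 0.97). Fgfr2 was followed by Ctdspl2 (r = 0.96), Lrrn3 (r = 0.96), Pole (r = 0.95), Map1b (r = 0.95) and Asap1 (r = 0.94). Fgfr1 had lower values, led by Hivep1 (r = 0.90) and followed by Man2b2, Zfp217, Samd4 and Abhd4 (r = 0.84 to 0.87). Among the receptors themselves, r was 0.74 between Fgfr3 and Fgfrl1 and -0.77 between Fgfr2 and Fgfr3.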

How the data were processed

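Per the labels and the study's methods, RNA from laser-captured tissue was amplified (NuGEN Ovation v2) and sequenced as 2 × 100 bp. The authors mapped reads to mm10 with STAR and deposited raw counts of fragments per gene, made with featureCounts 1.5.0-p1 on Ensembl release 75 exons without nonsense-mediated-decay transcripts, unstranded and without multi-mapping fragments. Here a gene entered the test if it exceeded 1 FPKM in 50% or more of the libraries (11469 genes). Counts were scaled by TMM and fitted with voom and limma 3.58.1 (R 4.3.3, edgeR 4.0.16) with 1 mean for each of the 6 groups. The study's methods name TMM, voom, limma and a design with all sample groups. Tissue contrasts averaged the genotypes. Adjusted p-values are Benjamini-Hochberg over all genes kept. Printed FPKM used the summed exon length and TMM-scaled fragments of kept genes. Ratios were tested by exact permutation over embryos.

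The members, marker lists and pathway lists were chosen with earlier results of these data known. Named pathway genes were, per list, the smallest adjusted p in each direction of a tissue comparison and the smallest p of a genotype comparison, plus the 5 most correlated genes per receptor. Some items that these rules name are not reported here. Libraries of 1 embryo share its animal, and their deviations from group means correlated between -0.09 and 0.11 over 18 pairs, so the embryo was blocked only in alternatives. Each library is 1 tissue of 1 embryo, so that the 18 libraries stand for 6 embryos. The totals of 8218548 to 15585778 counts limit precision chiefly for Fgfr4. The procedure was tested on simulated data. Pathway and marker p-values, like the other limma p-values, measure the spread between libraries within a group. That spread holds differences of embryo, capture and amplification together. DESeq2 1.42.0, edgeR, other filters, scalings, blocks and leave-one-out fits were alternatives, and the fits without both condylar libraries numbered 3, without these and Fgfr2+/+ MC replicate 1, with the embryo block for interactions, and with other filters for Fgfr4 were chosen after seeing the data.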

Additional observations from a re-analysis of the deposited data

How the results depend on the processing

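All 8 receptor differences between tissues that passed kept their direction and their call in 211 of 214 alternatives. The exceptions were Fgfr2 bone minus MC under scaling by total counts alone (0.36) and in Fgfr2+/S252W embryos alone (-0.58), and Fgfrl1 condylar cartilage minus MC in Fgfr2+/S252W embryos alone (0.78). Of 326 alternatives of the 16 receptor results that did not pass, 321 stayed short of the threshold, as did every receptor in 77 alternatives of the tissue by genotype tests. Total counts alone also gave 0.91 for Fgfr1 bone minus MC and 0.91 for Fgfr1 condylar cartilage minus MC, 0.89 for Fgfr3 bone minus MC (these 3 passed), and genotype differences of 0.16 for Fgfr2 in bone and -0.090 for Fgfrl1 in condylar cartilage. This setting raised the median of all genes to 1.10, 0.30 and 0.79 in bone minus MC, bone minus condylar cartilage and condylar cartilage minus MC, and the share of calls that were higher to 94.1%, 73.7% and 83.7%, against 52.0%, 51.6% and 50.6%. Among pathway genes it gave 0.032 for Gpc3 and 0.40 for Plcg1 (bone minus MC), 0.044 for Ptbp1 (bone minus condylar cartilage) and 0.16 for Ptbp1 (genotype, bone).

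Without the filter, Fgfr1 bone minus MC was 0.066, and the genotype differences in bone were 0.037 for Fgfr2 and 0.032 for Ptbp1. Quality weights gave -0.15 for Fgfr1 condylar cartilage minus MC and 0.00034 for Ptbp1 in bone, DESeq2 gave -0.0054 for Fgfrl1 in bone, and Ptbp1 bone minus MC was -0.038 in Fgfr2+/S252W embryos alone. Without both condylar libraries numbered 3, Fgfr1 was 0.17 in bone minus condylar cartilage and -0.31 in condylar cartilage minus MC. Leaving out Fgfr2+/+ MC replicate 1 as well, the Fgfr1 values were 0.17, -0.58 and, for bone minus MC, -0.41, and its genotype difference in MC was -0.11. Leaving out each library in turn, ranges that crossed 0 were -0.40 to 0.025 (Fgfr1 bone minus MC), -0.41 to 0.085 (Fgfr3 bone minus MC), -0.11 to 0.38 (Fgfr1 condylar cartilage minus MC) and, between genotypes, -0.13 to 0.14 (Fgfr2 bone), -0.10 to 0.29 (Fgfr3 bone), -0.15 to 0.15 (Fgfrl1 bone), -0.11 to 0.74 (Fgfr1 MC), -0.95 to 0.050 (Fgfr3 MC) and -0.094 to 0.22 (Fgfrl1 condylar cartilage). Bone genotype differences of Fgf10 and Ptbp1 ranged from -0.49 to 0.038 and from -0.072 to 0.054. Where no cause is named, the cause was not tested.

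With the embryo as a block no receptor call changed (Fgfr3 bone minus condylar cartilage -3.37, Fgfrl1 condylar cartilage minus MC 1.16). Equal replicate numbers in the 2 genotypes were treated as only a number, since the labels name no shared litter or day and deviations of such pairs correlated between -0.15 and 0.28 (highest for condylar replicates 3) with 3 of 9 above 0.1, and the block by number changed no receptor call (Fgfr1 in bone 0.53). It moved the number of genes that differed in genotype effect between bone and MC from 6 to 1.

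The number of genes past the threshold between genotypes in bone was 10, against 4 (edgeR), 18 (DESeq2), 1 (total counts), 21 (filterByExpr), 53 (no filter), 589 (quality weights), 141 (bone libraries alone) and 120 (without the 3 libraries). It was 0 without Fgfr2+/+ bone replicate 1, 2 without replicate 2, 91 without replicate 3 and 1 without each of the Fgfr2+/S252W bone libraries. In MC it was 0, against 90 (edgeR), 423 (DESeq2), 45 (no filter) and 1 (embryo as a random block) and 138 and 42 without Fgfr2+/+ MC replicates 2 and 3, and in condylar cartilage 0, against 3 (DESeq2), 2 (quality weights) and 1 (without the 3 libraries). For genotype effects, bone against MC gave 94 with DESeq2, 0 with total counts, 12 with filterByExpr, 16 with no filter, 10 with quality weights and 22 without the 3 libraries, and 0 without Fgfr2+/S252W MC replicate 1 to 27 without Fgfr2+/+ MC replicate 2, bone against condylar cartilage gave 5, 13 and 4 with DESeq2, quality weights and without the 3 libraries, and condylar cartilage against MC gave 96 with DESeq2. Tissue counts without a filter were 13153, 9369 and 11356, and 3897 for bone against MC in Fgfr2+/+ embryos and 3656 for bone against condylar cartilage in Fgfr2+/S252W embryos. At 0 to 69 fragments per library, depth limits Fgfr4.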
